A study of Mus musculus with 21 samples.

Results

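Serpina3n, Vim and Cd44 were measured as genes of the reactive astrocyte response in the injured mouse brain. They were taken by gene symbol from the probe table of the panel, and another gene of the set, Aspg, had no probe under its name and was not analysed here. The 3 measured genes were 3 of 757 probes on the panel, of which 703 carried 1 symbol, and all 3 passed the filter on low values that left 740 tested probes.

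Astrocytes answer injury with a change of state known as reactive astrogliosis, in which the cell body and processes enlarge, intermediate filaments accumulate and secreted proteins are induced. Serpina3n encodes a secreted serine protease inhibitor and is among the genes most often used to mark reactive astrocytes in mouse brain. The study also named it as a marker of reactive oligodendrocytes. Vim encodes vimentin, an intermediate filament protein that is also made by endothelial cells, fibroblasts and activated myeloid cells. Cd44 encodes a surface receptor for hyaluronan, a large sugar polymer of the extracellular matrix, and is carried by astrocytes, by leukocytes and by other cells. Aspg encodes an asparaginase.

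RNA came from the right hemisphere of 21 male C57BL6J mice, 1 mouse per sample, in 7 groups of 3, and was counted on the nCounter Mouse Neuroinflammation panel. The sham group received anesthesia and a scalp incision only, is labelled as given vehicle, and pooled mice of 12, 13 and 16 weeks. The 6 injured groups underwent a controlled cortical impact (CCI), an open-head traumatic brain injury (TBI), over the right parieto-temporal cortex and were sampled on day 3 at 12 weeks of age, day 7 at 13 weeks or day 28 at 16 weeks. On each day 1 injured group received PBS vehicle (PBS TBI) and 1 received CR2-Crry at 16 mg/kg (CR2-Crry TBI), intravenously 1 h after injury. CR2-Crry is a fusion protein whose complement receptor part homes to sites of C3 activation and whose Crry part is a mouse complement inhibitor. Both day 28 groups received 3 more doses intraperitoneally, so day 28 differs from the earlier days in dosing as well as in time and age. No sham mice received CR2-Crry, the sham surgery left the skull closed, and each p-value measures only the spread between the mice of these groups.

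Between 750585 and 1023041 molecules were counted per sample, as estimated from the steps in which the normalized values come. Values below are signal normalized by the authors to housekeeping genes, on a linear scale, and log2 changes with their standard errors (SE) come from limma over all 740 tested probes, called at a Benjamini-Hochberg adjusted p under 0.05. The median log2 change of all tested probes against sham ran from 0.21 to 0.36 over the 6 injured groups. Setting each sample to its own median lowered every change against sham by the difference of the sample medians, 0.33 to 0.73 on the log2 scale. This shift turned the split of calls, for example from 382 higher and 98 lower to 196 higher and 387 lower in PBS TBI on day 3. Since whole hemispheres were measured, fewer cells of a type and less RNA per cell cannot be told apart. Defining neuronal genes were present throughout: the sum of 9 of them ran from 53961 to 55305 in sham and from 41207 to 49929 over the injured groups. The astrocyte transporter gene Slc1a3, the gap junction gene Gja1 and 3 other homeostatic astrocyte genes were also detected in every sample, while Gfap was not analysed here.

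The upstream sequences of the 3 genes are shown as a description, and whether they bear on the changes given below was not tested. They are the bases of mouse build GRCm38.p6 before the transcript start in RefSeq, 5′ to 3′ on the gene's strand, in lower case with motif matches in capitals, and bases inside the annotated gene are left out. The windows are chr12:104406458-104406645 on the plus strand for Serpina3n, chr2:13574061-13574310 on the plus strand for Vim and chr2:102901670-102901915 on the minus strand for Cd44.
Serpina3n: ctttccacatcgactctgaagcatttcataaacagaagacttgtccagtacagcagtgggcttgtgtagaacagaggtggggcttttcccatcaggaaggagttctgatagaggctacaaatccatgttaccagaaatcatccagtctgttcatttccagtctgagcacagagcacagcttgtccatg
Vim: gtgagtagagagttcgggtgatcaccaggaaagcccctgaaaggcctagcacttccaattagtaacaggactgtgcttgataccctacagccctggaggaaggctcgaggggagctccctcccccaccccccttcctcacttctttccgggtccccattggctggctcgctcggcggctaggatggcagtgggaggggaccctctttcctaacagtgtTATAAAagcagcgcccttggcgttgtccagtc
Cd44: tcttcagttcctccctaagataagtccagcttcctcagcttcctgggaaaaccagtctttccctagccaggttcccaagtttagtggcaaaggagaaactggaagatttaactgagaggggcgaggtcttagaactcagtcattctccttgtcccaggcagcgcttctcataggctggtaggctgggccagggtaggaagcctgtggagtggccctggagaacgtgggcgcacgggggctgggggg
The capitals in the Vim sequence mark TATAAA, the letters of a TATA box, at positions -32 to -27 from the transcript start. Of the 250 bases searched for each gene, 62 in Serpina3n and 4 in Cd44 lie inside the annotated gene and are not printed. The 250 searched bases held no TATAAA in Serpina3n or Cd44. In none of the 3 genes did these bases hold an AP-1 site written as TGANTCA, a STAT palindrome written as TTCNNNGAA or an NF-kB site written as GGANTTTCC, searched on both strands. Over 32851 mouse promoters of the same length the shares with a match were 12.4% for the TATA box, 6.75% for the AP-1 site, 7.02% for the STAT palindrome and 1.06% for the NF-kB site. A match describes letters only.

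Serpina3n lies at chr12:104406646-104414334, within a cluster of 11 Serpina3 genes on chromosome 12, counting the pseudogene Serpina3h. The cluster arose by duplication. Serpina3n was the only one of these genes with a named probe, so how much signal of its copies the probe picked up was not tested. Vim lies at chr2:13574311-13582826. Cd44 lies at chr2:102811141-102901669 and has 11 RefSeq transcripts, which a single probe cannot tell apart.

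The first question was how injury changed these genes over time. Serpina3n rose more than 12-fold on all 3 days after PBS TBI, Vim rose 14.4-fold on day 3 and was still 4.38-fold above sham on day 28, and Cd44 rose by less than 2-fold. All 3 genes were called higher on each day. Called higher were 51.6% of all tested probes on day 3, 57.3% on day 7 and 44.5% on day 28, so a call by itself did not set these genes apart. By size, Serpina3n ranked 8 of 740 on day 3, 6 on day 7 and 3 on day 28. Vim ranked 9, 21 and 19 on the same days, and Cd44 235, 218 and 89.

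**Figure D1:**
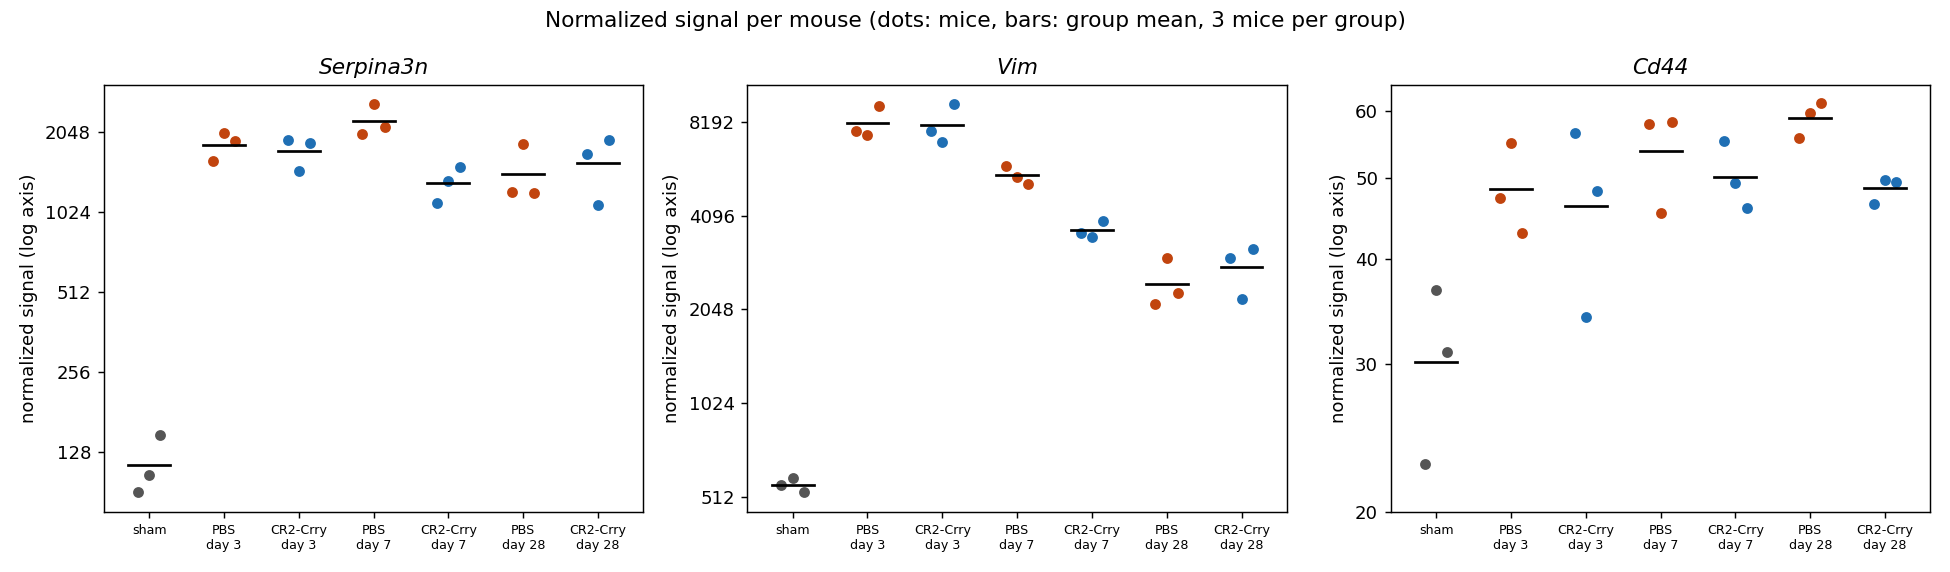
Normalized signal of Serpina3n, Vim and Cd44 in each mouse on a log axis, with 1 dot per mouse and a bar at the mean of the 3 mice of a group. Serpina3n and Vim in all 18 injured mice lie above the 3 sham mice, and the highest Cd44 sham value of 36.7 lies above 1 CR2-Crry day 3 mouse at 34.2. In the injured groups 47.6% to 59.6% of tested probes lay wholly above sham.

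In sham brains Serpina3n, the protease inhibitor, read 90.4, 105 and 149 in the mice of 12, 13 and 16 weeks. After PBS TBI it read 1582, 2028 and 1878 on day 3. It read 1998, 2590 and 2128 on day 7, and 1209, 1831 and 1202 on day 28. All lay above the sham range, as did 398, 441 and 370 of 740 tested probes on days 3, 7 and 28. The log2 changes against sham were 4.02 on day 3 (SE 0.21, adjusted p = 8.04e-12), 4.31 on day 7 (SE 0.21, adjusted p = 1.5e-12) and 3.63 on day 28 (SE 0.21, adjusted p = 1.63e-10), all by limma. As folds these are 16.2, 19.8 and 12.3, with 95% confidence intervals of 11.9 to 22.1, 14.6 to 27.0 and 9.06 to 16.8.

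Set against the single sham mouse of the same age, Serpina3n in the day 28 PBS mice was 8.06-fold to 12.3-fold higher, against 17.5-fold to 22.4-fold on day 3. The 16-week sham mouse held the highest Serpina3n of the sham group. It also stood apart in Lcn2, the gene of the secreted iron-siderophore binding protein lipocalin 2, which read 34.6 and 168 in the younger sham mice and 2687 in this one. Osmr, a subunit of the oncostatin M receptor, read 98.3, 86.5 and 257. Without this mouse the Serpina3n changes against sham rose to 4.22, 4.51 and 3.83 on days 3, 7 and 28 of PBS TBI.

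Vim, the filament gene, read 561, 588 and 531 in the sham mice, which lay closer together than for Serpina3n or Cd44. It read 7619, 7430 and 9208 on day 3 after PBS TBI. It then read 5920, 5458 and 5150 on day 7, and 2128, 2991 and 2313 on day 28. The 3 days did not overlap each other or sham. Day 7 lay wholly below day 3 in 10.8% of tested probes, and day 28 wholly below day 7 in 46.2%. The log2 changes against sham were 3.85 (SE 0.13, adjusted p = 4.61e-14), 3.30 (SE 0.13, adjusted p = 2.40e-13) and 2.13 (SE 0.13, adjusted p = 4.25e-10, all limma). The folds were 14.4, 9.83 and 4.38, with 95% confidence intervals of 11.8 to 17.5, 8.08 to 12.0 and 3.60 to 5.33.

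Cd44, the hyaluronan receptor gene, was measured near the low end of the panel, with an estimated 29 to 64 counted molecules per sample. It read 22.8, 36.7 and 31.0 in the sham mice. After PBS TBI it read 47.3, 55.0 and 42.9 on day 3, 57.9, 45.3 and 58.2 on day 7, and 55.8, 59.8 and 61.4 on day 28. All 9 PBS TBI mice were above the sham mice, a separation shared with the 398, 441 and 370 tested probes given above. A test without moderation of the variances did not call Cd44 on any day (adjusted p of 0.0883, 0.0571 and 0.0785). The log2 changes were 0.70 (SE 0.19, adjusted p = 0.00298), 0.85 (SE 0.19, adjusted p = 0.000570) and 0.99 (SE 0.19, adjusted p = 0.000241, limma), or 1.63-fold, 1.81-fold and 1.99-fold. With each sample set to its own median the changes were 0.10 on day 3 (adjusted p = 0.634) and 0.12 on day 7 (adjusted p = 0.561), and 0.65 on day 28, which was still called (adjusted p = 0.00551). Under that scaling Serpina3n and Vim were called on every day, with changes of 3.29 to 3.58 and of 1.79 to 3.24.

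The next question was how the levels moved between days after PBS TBI. Vim fell at each step, and Serpina3n fell only from day 7 to day 28. Vim fell 1.46-fold from day 3 to day 7 (log2 change -0.55, SE 0.13, limma adjusted p = 0.00607), where 6.62% of tested probes were called lower. It fell 2.24-fold from day 7 to day 28 (log2 change -1.17, adjusted p = 1.31e-06), where 39.1% were called lower. From day 3 to day 28 it fell 3.28-fold (log2 change -1.72, adjusted p = 1.45e-08), ranking 15 from the bottom of 740, beside 31.2% called lower. Serpina3n changed by 0.29 on the log2 scale from day 3 to day 7 (95% confidence interval -0.16 to 0.74, adjusted p = 0.325). It fell 1.61-fold from day 7 to day 28 (log2 change -0.68, SE 0.21, adjusted p = 0.0133). That call was lost with each sample set to its own median (-0.29, adjusted p = 0.164), and without PBS day 7 mouse 2 or PBS day 28 mice 1 or 3 (adjusted p of 0.0653, 0.0632 and 0.0638). Cd44 changed between 0.14 and 0.29 over the 3 day comparisons and was not called, but under the own-median scaling it was called higher on day 28 than on day 7 (0.53, adjusted p = 0.0199) and day 3 (0.55, adjusted p = 0.0173).

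**Figure D2:**
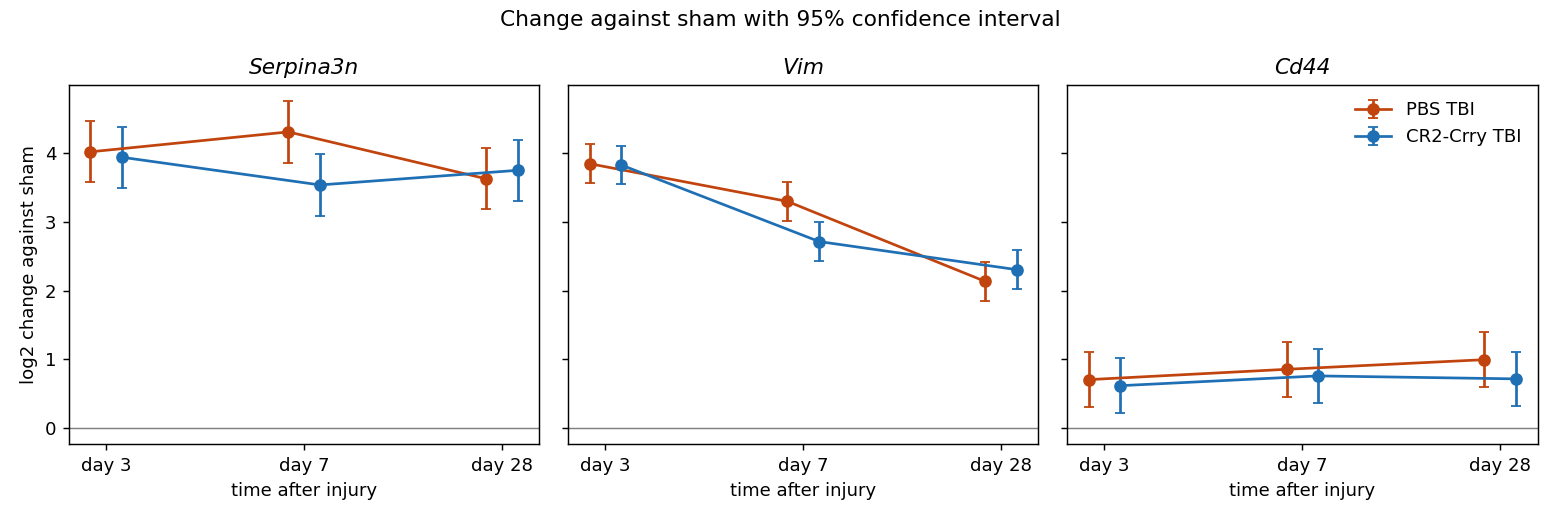
Log2 change against sham of Serpina3n, Vim and Cd44 on days 3, 7 and 28, in PBS TBI and in CR2-Crry TBI, with bars for the 95% confidence interval of the limma contrast. The lines share the same sham mice. Serpina3n stays between 3.54 and 4.31 on all days, Vim comes down from 3.85 to 2.13 in PBS TBI, and Cd44 stays under 1.

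The ratio of Serpina3n to Vim within a mouse was higher on day 7 than on day 3, while its course from day 7 to day 28 depended on the sham value used. The log2 ratio of Serpina3n to Vim, given relative to the mean of the sham mice, was 0.17 ± 0.24 on day 3, 1.01 ± 0.25 on day 7 and 1.49 ± 0.12 on day 28 after PBS TBI (SD, n = 3). After CR2-Crry TBI it was 0.11 ± 0.18, 0.82 ± 0.18 and 1.45 ± 0.14. Ratios on day 28 ran from 1.29 to 1.61 over the 6 mice and lay above all day 7 ratios, which ran from 0.62 to 1.24. The day 7 ratios in turn lay above all day 3 ratios, the highest of which was 0.44. The sham mice themselves read -0.32, -0.17 and 0.48 at 12, 13 and 16 weeks, the ages of the day 3, day 7 and day 28 mice. Relative to the sham mouse of the same age, the means were 0.49, 1.18 and 1.01 after PBS TBI and 0.43, 0.99 and 0.96 after CR2-Crry TBI on days 3, 7 and 28. The gain from day 7 to day 28 was thus absent when age was matched, and with 1 sham mouse per age, age and the single mouse cannot be told apart. The ratio does not depend on the scaling of a sample. It was examined after these values were known and was not tested.

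**Figure D3:**
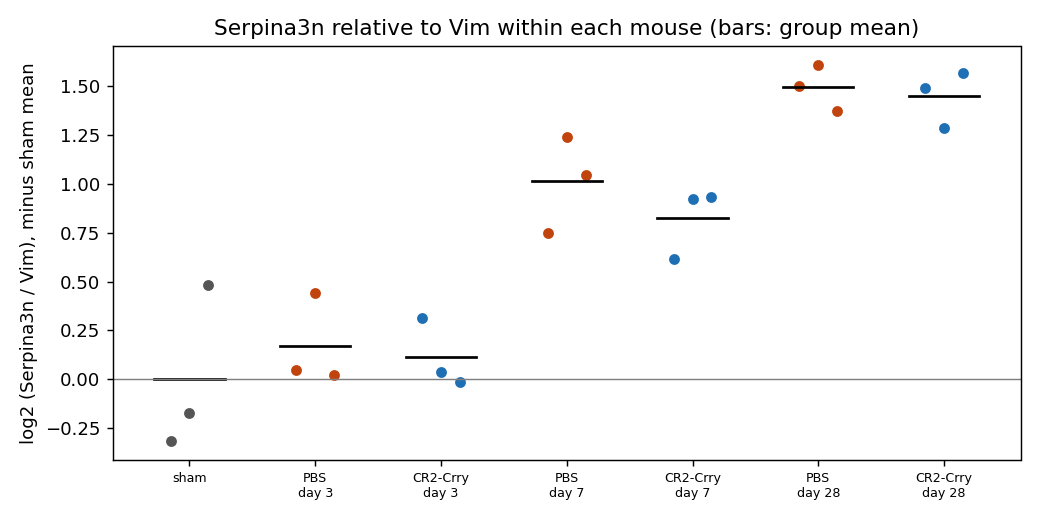
Log2 ratio of Serpina3n to Vim signal within each mouse, minus the mean of the 3 sham mice, with 1 dot per mouse and a bar at the group mean. The 6 day 28 mice lie between 1.29 and 1.61, and the 3 sham mice between -0.32 and 0.48, with the 16-week mouse highest.

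The treatment groups were also set against the same sham mice. After CR2-Crry TBI all 3 genes were again called higher than sham on each day, beside 53.0% of tested probes called higher on day 3, 48.0% on day 7 and 44.3% on day 28. Serpina3n read 1898, 1456 and 1849 on day 3. It read 1105, 1330 and 1504 on day 7, and 1681, 1081 and 1898 on day 28. Its log2 changes were 3.94, 3.54 and 3.75, or 15.3-fold, 11.6-fold and 13.5-fold above sham (limma adjusted p at most 1.14e-10).

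Vim after CR2-Crry TBI read 7619, 7072 and 9305 on day 3. It read 3594, 3498 and 3926 on day 7, and 2983, 2206 and 3198 on day 28. The folds over sham were 14.2, 6.56 and 4.94. Vim thus came down mostly before day 7 in these mice: the log2 change from day 3 to day 7 was -1.11 (limma adjusted p = 6.55e-06, beside 12.2% of probes called lower), and from day 7 to day 28 it was -0.41 (adjusted p = 0.0307, beside 22.3%). The later call was lost under 4 of 11 alternatives and without CR2-Crry day 7 mouse 1 or 3 or CR2-Crry day 28 mouse 2, where the change was -0.25. From day 3 to day 28 the log2 change was -1.52 (adjusted p = 5.75e-08, beside 33.1%). Serpina3n was not called between any days of CR2-Crry TBI, with log2 changes of -0.40, 0.21 and -0.19 for day 7 against day 3, day 28 against day 7 and day 28 against day 3.

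Cd44 after CR2-Crry TBI read 56.5, 34.2 and 48.2 on day 3, 55.3, 49.2 and 46.0 on day 7, and 46.5, 49.7 and 49.5 on day 28. The log2 changes against sham were 0.61, 0.76 and 0.71 (limma adjusted p of 0.00788, 0.00193 and 0.00401). On day 3 CR2-Crry mouse 2 lay inside the sham range, and the call was lost without sham mouse 1 (0.43, adjusted p = 0.0645) or CR2-Crry mouse 1 (0.46, adjusted p = 0.0574). With each sample set to its own median the 3 changes were -0.031, 0.20 and 0.38, with none called. Cd44 was not called between days of CR2-Crry TBI.

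The main treatment question was whether complement inhibition moved these genes in injured brains. On day 7 Serpina3n was 1.71-fold lower and Vim 1.5-fold lower in CR2-Crry TBI than in PBS TBI, and in both genes all 3 treated mice lay below all 3 PBS mice, as they did in 218 of 740 tested probes (29.5%). The log2 difference was -0.77 for Serpina3n (SE 0.21, limma adjusted p = 0.0383) and -0.58 for Vim (SE 0.13, adjusted p = 0.0218). On that day 7.16% of tested probes were called lower, and Serpina3n ranked 20 and Vim 41 of 740 from the bottom. Cd44 overlapped between the treatments on day 7, at -0.096 (95% confidence interval -0.49 to 0.30, adjusted p = 0.740). The direction of Serpina3n and Vim held without any 1 mouse, at -0.88 to -0.65 and -0.63 to -0.53. The calls did not: each stayed called only without PBS day 7 mouse 3 (adjusted p = 0.0412 and 0.0160), and without each of the 5 other mice in turn the adjusted p ran up to 0.148 for Serpina3n and 0.0915 for Vim. With each sample set to its own median both stayed called, at -0.60 (adjusted p = 0.0404) and -0.42 (adjusted p = 0.0277). The Serpina3n call was lost with no trend in the moderation (adjusted p = 0.0614) and with the replicate block (adjusted p = 0.0538). In a test without moderation of the variances neither was called (adjusted p of 0.242 and 0.183), nor was any other probe.

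**Figure D4:**
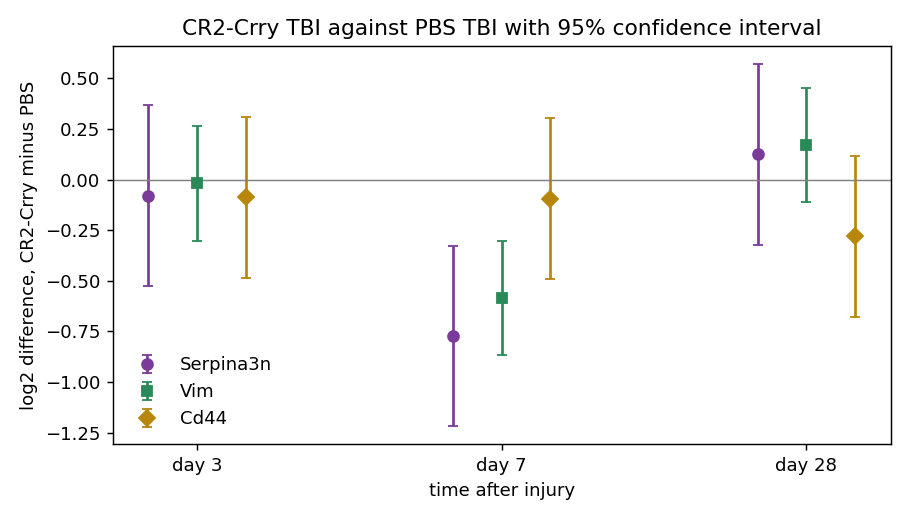
Log2 difference of CR2-Crry TBI against PBS TBI for Serpina3n, Vim and Cd44 on each day, with bars for the 95% confidence interval of the limma contrast. On day 7 the intervals of Serpina3n and Vim lie below 0, and on days 3 and 28 every interval crosses 0.

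On day 3 the difference was -0.079 for Serpina3n (95% confidence interval -0.53 to 0.37), -0.019 for Vim (-0.30 to 0.26) and -0.088 for Cd44 (-0.49 to 0.31). On day 28 it was 0.12 for Serpina3n (-0.32 to 0.57), 0.17 for Vim (-0.11 to 0.45) and -0.28 for Cd44 (-0.68 to 0.12). In Cd44 all 3 treated mice on day 28, at 46.5 to 49.7, lay below the PBS mice, at 55.8 to 61.4, as in 5.27% of tested probes, and the difference was not called (limma adjusted p = 0.999). Averaged over the 3 days the differences were -0.24, -0.14 and -0.15 for Serpina3n, Vim and Cd44, with adjusted p of 0.552, 0.574 and 0.650. On day 3, on day 28 and averaged over days limma called 0.00% of the 740 tested probes, with 27, 15 and 65 at an unadjusted p under 0.05, and limma voom, run on the counts recovered from the normalized values, called 0 in each.

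Whether the treatment difference itself changed between days was tested as an interaction. For Vim the difference on day 28 minus that on day 7 was 0.76 (SE 0.19, unadjusted p = 0.000876 and adjusted p = 0.115, limma), and for Serpina3n it was 0.90 (SE 0.30, unadjusted p = 0.00788 and adjusted p = 0.151). Day 7 minus day 3 gave -0.57 for Vim (adjusted p = 0.187) and -0.69 for Serpina3n (adjusted p = 0.264). For Cd44 these were -0.18 and -0.0079, and day 28 minus day 3 was not called for any of the 3 genes (adjusted p = 0.997). Over the 3 interactions limma called 0.00% of tested probes, with 144, 124 and 25 at an unadjusted p under 0.05 for day 28 minus day 7, day 7 minus day 3 and day 28 minus day 3, and voom called 0. A larger effect on day 7 than on the other days was therefore not shown after adjustment. Without PBS day 28 mouse 2 the day 28 minus day 7 interaction was called for Serpina3n (1.10, adjusted p = 0.0451) and Vim (0.90, adjusted p = 0.0211). The same held without CR2-Crry day 28 mouse 2, at 1.14 (adjusted p = 0.0161) and 0.92 (adjusted p = 0.00637).

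These day 28 mice stood apart in more than 1 gene. PBS day 28 mouse 2 held the highest Serpina3n (1831) and Vim (2991) of its group and read 3317 for Lcn2 and 244 for Steap4, a metalloreductase gene, against 1171 to 1239 and 100 to 111 in the other PBS mice. CR2-Crry day 28 mouse 2 held the lowest Serpina3n (1081) and Vim (2206) of its group and read 1063 for Lcn2 and 119 for Steap4, against 4550 to 4668 and 320 to 344. In the PBS groups mouse 2 held the highest Serpina3n and Lcn2 on day 3 and day 7 as well. What set these mice apart was not tested.

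By mean level over the 7 groups, Serpina3n ran from sham through CR2-Crry day 7, PBS day 28, CR2-Crry day 28, CR2-Crry day 3 and PBS day 3 to PBS day 7. Only the step from sham to the next group was free of overlap, as in 52.0% of tested probes. For Vim the order was sham, PBS day 28, CR2-Crry day 28, CR2-Crry day 7, PBS day 7, CR2-Crry day 3 and PBS day 3. Here only the day 28 groups overlapped each other, and the day 3 groups likewise. For Cd44 every neighbouring pair in the order overlapped, from sham through CR2-Crry day 3 to PBS day 28.

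The genes most like each of the 3 over the 7 group means, by the root mean square difference of centred log2 means among 686 other named genes, were set beside them as a description. For Serpina3n they were Bcl2a1a, an anti-apoptotic Bcl2 family gene (0.40), C4a, a complement C4 gene (0.42), and Lilrb4a, an inhibitory receptor of myeloid cells (0.43), against a median of 1.28 over all genes compared. Bcl2a1a and C4a have near-identical copies in the mouse genome, which their probes may not tell apart. C4a followed PBS TBI with changes of 2.66, 3.50 and 2.65 on days 3, 7 and 28, with its highest value on day 7 as in Serpina3n. For Vim they were Atf3, a stress-induced transcription factor (0.24), Ccl2, a chemokine that draws monocytes (0.24), and again Lilrb4a (0.32), against a median of 1.15. Atf3 changed by 3.48, 3.06 and 1.56 in PBS TBI, the same downward course as Vim. For Cd44 they were Sox9, an astrocyte transcription factor (0.11), Fadd, a death receptor adaptor (0.11), and Tnfsf10, which encodes the ligand TRAIL (0.12), where the median over all genes was only 0.31, so closeness to Cd44 was common. Serpina3n and Vim differed from each other by 0.59, which placed Vim 15 among the genes closest to Serpina3n. Cd44 was much farther from both, at 1.12 and 1.06.

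The other genes of the pan-reactive astrocyte program, shared by astrocytes under different insults, were read as a list of 9, of which 7 had a named probe and were tested. In PBS TBI 7 of 7 were called higher than sham on day 3 and day 7 and 6 of 7 on day 28. Of all tested probes 51.6%, 57.3% and 44.5% were called higher on days 3, 7 and 28. The median log2 changes of the list were 1.91, 2.42 and 1.59 beside 0.30, 0.36 and 0.21 over all tested probes. Under own-median scaling 6, 5 and 5 were called higher and 0 lower, beside 196 higher and 387 lower of the 740 tested probes on day 3. Lcn2 was 7.52-fold, 5.36-fold and 6.76-fold above sham but with an SE of 1.00, since sham itself spanned 34.6 to 2687. Steap4 was 3.76-fold, 5.64-fold and 5.76-fold above sham. S1pr3, a sphingosine 1-phosphate receptor, was 3.29-fold, 3.81-fold and 2.38-fold above sham. Timp1, an inhibitor of matrix metalloproteinases, was 17.4-fold on day 3, 6.87-fold on day 7 and 3.02-fold on day 28, a fall over time like that of Vim. Hspb1, a small heat shock protein gene, was the 1 not called on day 28, at 0.28.

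Between treatments on day 7, where 7.16% of tested probes were called lower, 1 of the 7 was called lower, Timp1 at -1.09 (SE 0.29), with a list median of -0.52 beside -0.11 over all tested probes. Lcn2 read 310 to 357 in CR2-Crry TBI and 825 to 2754 in PBS TBI on that day, at -2.03 (SE 1.00, not called). This separation was again that of 29.5% of tested probes. Of 8 tested A1 genes, named for astrocytes induced by inflammatory cytokines, 1 was called lower on day 7, Srgn, a proteoglycan gene, at -0.58. Of 11 tested A2 genes, named for astrocytes after ischemia, 1 was called lower, Emp1, a membrane protein gene, at -0.69. With 1 of 8 and 1 of 11, both shares lay near that of the whole panel. Of 5 tested homeostatic astrocyte genes 0 were called on day 7, with a median of -0.13, Gja1 at -0.21 and Slc1a3 at -0.15. On days 3 and 28 limma called 0 genes of these lists. The study itself examined reactive astrocyte genes in these samples, so these counts are not independent of the choice of list.

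Against sham in PBS TBI, 5 of 8 A1 genes were called higher on each day, and 1, 0 and 1 lower, not far from the 51.6%, 57.3% and 44.5% of all tested probes called higher. Under own-median scaling 4 were called higher on each day and 4, 3 and 1 lower. Among all 740 tested probes that scaling gave 196 higher and 387 lower on day 3. It shifted every probe by -0.60, -0.73 and -0.34 on days 3, 7 and 28. Serping1, the C1 inhibitor gene, was 2.41-fold, 3.98-fold and 2.47-fold above sham, and Gbp2, an interferon-induced GTPase gene, 3.06-fold, 5.62-fold and 2.46-fold. The MHC class I gene H2-T23 was called higher on day 3 (0.19) and lower on day 28 (-0.16). Of A2 genes 9 of 11 were called higher on each day and 1 lower, Ptgs2, the cyclooxygenase 2 gene, at -0.57, -1.17 and -1.20. Tgm1, a transglutaminase gene, was 70.2-fold, 28.4-fold and 11.9-fold above sham. After own-median scaling 9, 5 and 5 A2 genes were called higher and 2, 3 and 1 lower. The homeostatic astrocyte genes rose far less than Serpina3n and Vim: 5 of 5 were called higher on day 3 and day 7 and 4 of 5 on day 28, with median log2 changes of 0.61, 0.76 and 0.50. On the own-median scale 2, 1 and 2 of the 5 were called higher and 1, 2 and 1 lower.

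Myeloid genes were also above sham after injury, and on day 7 their sums were lower in CR2-Crry TBI, as were Serpina3n and Vim, while Cd44 was not called. The summed signal of 4 monocyte and macrophage genes (Ccr2, Msr1, Cd36 and Cd163) ran from 158 to 176 in sham, 912 to 1005 on day 3, 701 to 792 on day 7 and 224 to 353 on day 28 of PBS TBI. On day 7 it ran from 355 to 474 in CR2-Crry TBI, below all PBS mice. Msr1, a scavenger receptor gene of macrophages, was called lower at -0.89. Ccr2 at -0.92, Cd36 at -0.65 and Cd163 at -0.40 were not called. Of single tested probes 29.5% lay wholly below PBS TBI on that day. The summed signal of 8 microglia genes ran from 3928 to 4237 in sham, 11956 to 12918 on day 3, 13035 to 16202 on day 7 and 7052 to 7923 on day 28 of PBS TBI. On day 7 it was 11415 to 12069 in CR2-Crry TBI, and 3 of the 8 were called lower, beside 7.16% of all tested probes. These were Cx3cr1, the fractalkine receptor gene, at -0.34, Fcrls at -0.48 and Olfml3 at -0.39. P2ry12, first in that list, did not differ between the treatments, and the others not called ran from Gpr34 at -0.16 to Csf1r at -0.28. Under own-median scaling 0 of the 8 were called, beside 87 of all tested probes. No gene of these lists read 0 in any sample. The part of myeloid cells in the signal of Vim, Cd44 and Serpina3n was not tested.

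Of 5 endothelial genes 3 were called higher than sham and 1 lower on day 3 of PBS TBI, with sums of 3281 to 3471 against 2237 to 2425 in sham. Of all tested probes 51.6% were called higher and 13.2% lower on that day. On the own-median scale 1 was called higher and 2 lower, beside 196 higher and 387 lower of the 740 tested probes. On day 7 none of the 5 was called between treatments, at a median of -0.23, and the sums of 2249 to 2577 and 2439 to 3393 overlapped. Neuronal genes moved the other way from Serpina3n and Vim, with 7, 6 and 6 of 9 called lower than sham on days 3, 7 and 28 of PBS TBI and 0 called between treatments on day 7. Between treatments on day 7, 7.43% of all tested probes were called. Called lower than sham were 13.2%, 9.46% and 8.11% of them on days 3, 7 and 28. Of 5 oligodendrocyte genes 3, 4 and 2 were called higher than sham on these days, beside 51.6%, 57.3% and 44.5% of all tested probes. With each sample set to its own median 0 were called higher and 2, 4 and 3 lower. That scaling shifted the change of every tested probe by -0.60, -0.73 and -0.34 on days 3, 7 and 28. The turn in these genes was not told apart from that shift. Of 4 tested T cell genes 1 was called lower on day 3 of PBS TBI and 1 higher on day 28. Among all tested probes 13.2% were called lower on day 3 and 44.5% higher on day 28. The summed signal of the 4 T cell genes and 1 more named gene stayed between 54.6 and 136 in all groups.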

How the data were processed

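RNA of the right hemisphere of 21 mice (7 groups of 3) was counted on the NanoString nCounter Mouse Neuroinflammation panel. The deposited table holds signal for which the authors describe background thresholding in nSolver and scaling to the geometric mean of 11 housekeeping genes. The table showed no floor of repeated low values: at most 3 probes stood at the lowest value of a sample. It held 757 probes, of which 703 had 1 gene symbol and 54 none, and 0 sample columns were left unused. Within a tolerance of 0.0075, at least 99.87% of values in every sample were whole multiples of 1 step, and totals in steps ran from 750585 to 1023041, which is the estimated depth given for each sample.

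Probes with a value over 20 in at least 3 of 21 samples were tested, which left 740. The log2 of each value was used, without a pseudocount, and the group means of all 21 samples were estimated together by limma 3.58.1 (R 4.3.3), whose moderated variances followed a trend with signal. Within each contrast the Benjamini-Hochberg adjustment covered every tested probe, and an adjusted p under 0.05 was called, whatever the fold. The fit was tested on simulated data. Injured groups were compared with sham, treatments with each other per day and over the days together, days with each other within a treatment, and treatment differences between days. Python 3.11.15 with numpy 2.4.6, pandas 2.3.3 and matplotlib 3.10.9 made the other values and the figures.

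The members and gene lists were chosen with earlier results of these data known. The genes named were the members, the 3 genes nearest to each over the 7 group means, up to 4 leading measured genes of each list, and others. The others were singled out after their values were seen (Osmr, Hspb1, Srgn, Emp1, Ptgs2, Gpr34, Olfml3, Csf1r). Alternatives changed the moderation, the samples in the fit, sample weights, the adjustment, the pseudocount, the filter, the scaling, a block on replicate number and the mice included. Names and sequences of the promoters came from RefSeq (GRCm38.p6), in which all 3 genes were matched by symbol.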

Additional observations from a re-analysis of the deposited data

How the results depend on the processing

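The 57 values of Serpina3n, Vim and Cd44, of which 27 were called, were recomputed under 11 alternatives, and 266 of 291 values of the called results kept their direction and call. All changes of Serpina3n and Vim against sham were called under every alternative. Below, values are log2 changes, and where a call was lost or gained the cause was not tested unless stated. A test without moderation kept the sizes but lost the calls of Serpina3n for CR2-Crry against PBS on day 7 (-0.77, adjusted p = 0.242) and for day 28 against day 7 of PBS TBI (-0.68), of Vim for CR2-Crry against PBS on day 7 (-0.58, adjusted p = 0.183), PBS day 7 against day 3 (-0.55), and CR2-Crry day 7 against day 3 (-1.11), day 28 against day 7 (-0.41) and day 28 against day 3 (-1.52), and of Cd44 against sham (0.70, 0.85 and 0.99 for PBS, 0.61, 0.76 and 0.71 for CR2-Crry). With no trend in the moderation, Serpina3n on day 7 between treatments (-0.77) had an adjusted p of 0.0614. Same-numbered samples did not deviate together in the median (correlation -0.003 over 63 pairs, 0.007 over 126 other pairs). Single same-numbered pairs ran from -0.405 to 0.229, so a median over all groups cannot exclude that numbers pair mice within some groups. With the replicate block Serpina3n between treatments on day 7 was -0.77 (adjusted p = 0.0538), and no other call of the 3 genes changed, while calls on that day went from 55 to 20.

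With each sample set to its own median, Serpina3n lost the call for PBS day 28 against day 7 (-0.29) and changed sign for CR2-Crry day 28 against day 3 (0.13), and Vim lost CR2-Crry day 28 against day 7 (-0.18). Cd44 lost its calls against sham on PBS days 3 and 7 (0.10 and 0.12) and on all CR2-Crry days (-0.031, 0.20 and 0.38), changed sign for the treatment difference on day 7 (0.072), CR2-Crry day 28 against day 7 (0.19) and the interaction of days 7 and 3 (0.20), and was called for PBS day 28 against days 7 and 3 (0.53 and 0.55). Sample weights called Serpina3n for PBS day 28 against day 3 (-0.49) and the day 28 minus day 7 interactions of Serpina3n (1.10) and Vim (0.91), lost Vim for CR2-Crry day 28 against day 7 (-0.30) and turned the Cd44 interaction of days 7 and 3 (0.016). Fitting only the groups compared called Serpina3n for CR2-Crry day 7 against day 3 (-0.40) and lost Vim for CR2-Crry day 28 against day 7 (-0.41) and Cd44 for CR2-Crry day 3 against sham (0.61). An adjustment restricted to probes below 0.05 before it, which by its construction called each of them, called the interactions of days 7 and 3 (-0.69 for Serpina3n, -0.57 for Vim) and of days 28 and 7 (0.90 and 0.76).

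With 1 mouse left out at a time, values that changed a call or sign ran, for Serpina3n, from -0.18 to 0.042 (treatments, day 3), -0.88 to -0.65 (treatments, day 7), -0.040 to 0.37 (treatments, day 28), -0.88 to -0.57 (PBS day 28 against 7), -0.59 to -0.29 (PBS day 28 against 3), -0.35 to 0.052 (CR2-Crry day 28 against 3) and 0.73 to 1.14 (interaction of days 28 and 7). For Vim they ran from -0.13 to 0.078 (treatments, day 3), -0.63 to -0.53 (treatments, day 7), -0.52 to -0.25 (CR2-Crry day 28 against 7) and 0.65 to 0.92 (interaction of days 28 and 7). For Cd44 they ran from 0.43 to 0.82 (CR2-Crry day 3 against sham), -0.25 to 0.12 (treatments, day 3), -0.061 to 0.30, -0.10 to 0.029 and -0.10 to 0.26 (CR2-Crry day 7 against 3, 28 against 7 and 28 against 3) and -0.21 to 0.15 (interaction of days 7 and 3).

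Counts of called probes for CR2-Crry against PBS on day 7 went from 55 to 20 without the trend, 84 with only the groups compared, 141 with weights, 0 without moderation, 211 with the restricted adjustment, 87 with own-median scaling, 85 with voom, and 0 to 86 with 1 mouse left out, where the 86 stood without PBS day 7 mouse 3. For treatments on day 3 they went from 0 to 1 with only the groups compared and 27 with the restricted adjustment, on day 28 from 0 to 15 and averaged over days from 0 to 65 with the latter, and averaged over days to 2 without PBS day 7 mouse 3. Without moderation they went from 389 to 229 (PBS day 28 against sham), 404 to 172 (CR2-Crry day 28 against sham), 186 to 1 (PBS day 7 against 3), 334 to 131 (PBS day 28 against 7), 332 to 114 (PBS day 28 against 3), 141 to 11 (CR2-Crry day 7 against 3), 185 to 1 (CR2-Crry day 28 against 7) and 323 to 17 (CR2-Crry day 28 against 3). CR2-Crry day 7 against 3 rose to 226 with the restricted adjustment, CR2-Crry day 28 against 7 to 331 with own-median scaling, and PBS day 7 against 3 fell to 123 without PBS day 7 mouse 2. Interactions went from 0 to 21 with only the groups compared, 2 with weights and 124 restricted (days 7 and 3), to 78 with weights, 144 restricted, and 79 or 27 without CR2-Crry or PBS day 28 mouse 2 (days 28 and 7), and to 25 restricted (days 28 and 3). Voom was chosen after seeing the data, and the edgeR alternative was not run, since the deposited signal did not pass a check that whole counts can be recovered from it. Voom and the counted molecules given here rest on that recovery and are estimates. Cd44 gave no value under the filter on a mean of at least 50. It rested on an estimated 29 to 64 counted molecules a sample.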
